A study of Mus musculus with 14 samples.

Results

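The Cyp4a genes of the mouse encode cytochrome P450 enzymes that hydroxylate fatty acids at the end of the chain. Their transcripts were followed in kidneys from C57BL/6J males given a protein nanocage or its vehicle. The members were the 6 rows of the count table named Cyp4a10, Cyp4a12a, Cyp4a12b, Cyp4a14, Cyp4a31 and Cyp4a32, out of 24421 genes, and all 6 were among the 14854 genes with enough counts to be tested. The 14 libraries formed 5 groups: MnDps at 24 h (2 libraries), MnDps at 4 h (3), Dps at 24 h (3), Dps at 4 h (3) and vehicle (3). Both nanocages were given intravenously at 18 mg/kg, and the title of the study presents such cages as a means of targeting the proximal tubule by way of glomerular filtration. Neither Dps nor MnDps is spelled out in the labels, which name no composition for the vehicle and no time point for its kidneys. They do not say whether each library came from its own animal, so every p-value measures the spread between these libraries.

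Cyp4a enzymes act on medium and long chain fatty acids, and some of them turn arachidonic acid into the vasoactive lipid 20-HETE. In mouse kidney they are made mainly in the proximal tubule, whose cells burn fatty acids for energy. Cyp4a10 and Cyp4a14 are textbook targets of PPARα, the nuclear receptor that senses fatty acids, and both are induced in rodents by fasting and by fibrate drugs. Cyp4a12a is the main producer of 20-HETE in the mouse, and its transcript is androgen-dependent and higher in males. Cyp4a31 and Cyp4a32 are close copies of Cyp4a10 in the same gene cluster.

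All 6 genes lie in a cluster on chromosome 4 of the mm10 build, at chr4:115299046-115332815 for Cyp4a12a, chr4:115411624-115439034 for Cyp4a12b, chr4:115486200-115496142 for Cyp4a14, chr4:115518264-115533649 for Cyp4a10, chr4:115563649-115579015 for Cyp4a31 and chr4:115600969-115621602 for Cyp4a32. Cyp4a14 is on the minus strand and the other 5 are on the plus strand. How alike the copies are decides how well reads can be assigned to them. The stretch of coding exon that encodes the heme-binding loop of the P450 fold, which carries the cysteine that holds the iron, shows this for the whole family. It is printed from the mm10 genome with the GENCODE M21 gene models, in the direction of transcription, with capitals at bases that differ from Cyp4a10. The Cyp4a10 stretch joins the exon blocks chr4:115529487-115529518 and chr4:115532531-115532558.
Cyp4a10: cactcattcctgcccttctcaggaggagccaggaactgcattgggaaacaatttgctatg
Cyp4a31: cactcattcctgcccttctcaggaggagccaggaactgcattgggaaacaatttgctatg
Cyp4a32: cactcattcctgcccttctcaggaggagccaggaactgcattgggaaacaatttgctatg
Cyp4a12a: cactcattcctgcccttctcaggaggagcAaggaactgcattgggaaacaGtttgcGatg
Cyp4a12b: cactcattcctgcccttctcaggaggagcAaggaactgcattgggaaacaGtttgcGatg
Cyp4a14: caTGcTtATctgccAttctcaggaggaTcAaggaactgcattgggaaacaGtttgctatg
Over these 60 bases Cyp4a10, Cyp4a31 and Cyp4a32 were identical, Cyp4a12a and Cyp4a12b were identical to each other with 3 differences from Cyp4a10, and Cyp4a14 had 9 differences.

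The copies can be told apart elsewhere. Cyp4a12a and Cyp4a12b shared 98.5% of their aligned coding bases and differed at 23, and their most different 60 bases within a single exon held 4 of those. Capitals mark the bases of Cyp4a12b that differ from Cyp4a12a, in the exons at chr4:115326628-115326687 for Cyp4a12a and chr4:115432881-115432940 for Cyp4a12b, both on the plus strand.
Cyp4a12a: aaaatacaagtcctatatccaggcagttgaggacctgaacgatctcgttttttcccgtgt
Cyp4a12b: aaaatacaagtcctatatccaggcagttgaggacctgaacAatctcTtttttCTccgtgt
Cyp4a10 shared 96.6% of its coding bases with Cyp4a31 and 97.2% with Cyp4a32. The 60 bases of a single exon with the most positions that differ among these 3 genes lie at chr4:115519640-115519699 for Cyp4a10, chr4:115565020-115565079 for Cyp4a31 and chr4:115602270-115602329 for Cyp4a32. There Cyp4a31 had 2 differences from Cyp4a10 and Cyp4a32 had 9, again in capitals.
Cyp4a10: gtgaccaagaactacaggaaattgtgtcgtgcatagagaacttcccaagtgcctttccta
Cyp4a31: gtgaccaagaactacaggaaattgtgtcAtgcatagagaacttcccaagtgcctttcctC
Cyp4a32: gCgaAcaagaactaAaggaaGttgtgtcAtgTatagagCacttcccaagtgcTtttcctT
Reads were 75 bases long. Of all 75-base windows of the transcript, 41.3% of those of Cyp4a12b and 40.8% of those of Cyp4a12a also occur in another Cyp4a transcript, against 30.4% for Cyp4a32, 19.1% for Cyp4a10, 13.4% for Cyp4a31 and 0 for Cyp4a14. No source used here says how reads that fit several genes were counted. The levels of all members but Cyp4a14 are uncertain for that reason, and results for summed copies are given beside those of single genes where the call changes. The shares count single windows, while reads were paired, and only Cyp4a transcripts were compared. They thus do not measure the size of that uncertainty.

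Total counts ran from 15097093 to 42074942 per library, of which the 6 members took between 0.0592% and 0.181%. In a principal component analysis, the leading component (41.7% of the variance) set the 6 libraries from the 4 h groups apart from the other 8. Replicate 3 of MnDps at 4 h was the outermost library on the next component. Summed levels of 24 proximal tubule markers lay between 24812 and 31876 CPM (TMM-normalised read counts relative to library size) in every library. The lowest sums were those of MnDps at 24 h, at 24812 to 27801 CPM. None of these 24 markers of the labelled tissue was at 0 in any group. In whole kidney RNA, fewer cells of a type and less RNA per cell cannot be told apart.

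Cyp4a10 was the most abundant member per kilobase of transcript in every group. It averaged 229.3 ± 75 CPM per kilobase in MnDps at 24 h, 323.9 ± 54.7 in MnDps at 4 h, 131.7 ± 7.79 in Dps at 24 h, 246.9 ± 38.1 in Dps at 4 h and 215.1 ± 23.1 in vehicle kidneys (SD, n = 2, 3, 3, 3 and 3). Cyp4a31 came second in 4 of the 5 groups, with 149.8 ± 21 in MnDps at 24 h, 104.2 ± 4.71 in Dps at 24 h, 199.8 ± 30.3 in Dps at 4 h and 168.7 ± 13.2 in vehicle kidneys. In MnDps at 4 h, Cyp4a14 (164.7 ± 86.1 CPM per kilobase) and Cyp4a31 (152.9 ± 26.6) followed Cyp4a10 and did not differ beyond their spread. Cyp4a12a stood at 20.7 to 37.6 CPM per kilobase across the group means and Cyp4a12b at 6.87 to 17.6. Cyp4a32 was close to the limit of detection, with 4 to 39 counts per library and group means of 0.173 to 0.702 CPM per kilobase.

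**Figure D1:**
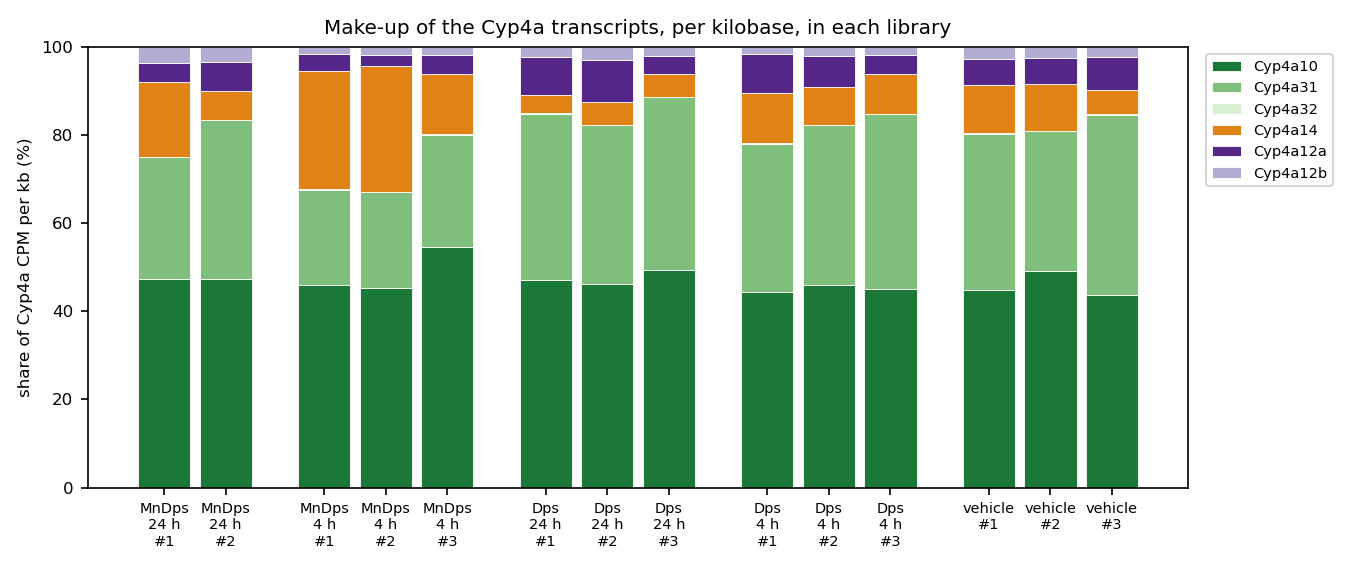
Share of each member in the summed Cyp4a level per kilobase of transcript (vertical axis, percent), one bar per library, with groups from MnDps at 24 h on the left to vehicle on the right; Cyp4a32 is too small to be seen. Cyp4a10 holds 43.6% to 54.6% of every bar, and Cyp4a14 holds 13.6% to 28.4% in MnDps at 4 h against 5.4% to 11% in vehicle kidneys.

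The make-up of the family differed most in the share of Cyp4a14. It took 13.6% to 28.4% of the summed level per kilobase in MnDps at 4 h and 4.22% to 5.15% in Dps at 24 h, against 5.4% to 11% in vehicle kidneys. The share of Cyp4a10 varied little, with group means between 45.1% and 48.7%. The summed level of the 6 genes was 861 to 1376 CPM in MnDps at 24 h, 1097 to 1844 in MnDps at 4 h, 606.1 to 695.9 in Dps at 24 h and 1047 to 1484 in Dps at 4 h, against 1028 to 1122 CPM in vehicle kidneys. The 3 Dps libraries at 24 h lay below all the others.

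The comparison of MnDps at 4 h with vehicle addressed the early response to that cage. Cyp4a14 and Cyp4a10 rose, and no member was called lower. With edgeR's quasi-likelihood test, 2 of 6 members were called higher at an adjusted p under 0.05, while 22.9% of all tested genes were called higher and 22.7% lower, so 2 of 6 is near the background of this comparison. For 3 of 6 members the groups did not overlap, all higher in MnDps, against 26.3% of all genes. The median log2 fold change of the members was 0.28, against 0.00 over all genes tested. Cyp4a14 had 532.9, 537.1 and 163.1 CPM in MnDps at 4 h, against 130.4, 129.7 and 59.6 CPM in vehicle kidneys. Its 3 MnDps libraries were all above the 3 vehicle libraries, although replicate 3 of MnDps was far below replicates 1 and 2, and the log2 fold change was 1.95 ± 0.61 (SE, adjusted p = 0.025). Cyp4a10 had 773.2, 723.3 and 553.1 CPM in MnDps at 4 h, against 449.7, 504.3 and 407.1 CPM in vehicle kidneys. These groups did not overlap either, and the log2 fold change was 0.59 ± 0.17 (adjusted p = 0.0118). The near copy Cyp4a31 gave -0.14 ± 0.13 (adjusted p = 0.386). Cyp4a32 gave 0.81 ± 0.36 (adjusted p = 0.0764), without overlap.

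Neither call of that comparison held under every alternative. The summed counts of Cyp4a10, Cyp4a31 and Cyp4a32 gave 0.28 ± 0.14 (adjusted p = 0.108), and a correction for transcript length and GC content gave 0.38 ± 0.18 for Cyp4a10 (adjusted p = 0.112). Without replicate 1 of MnDps at 4 h or replicate 3 of vehicle Cyp4a10 gave 0.48 and 0.52 (adjusted p = 0.053 and 0.0561). Without those same libraries Cyp4a14 gave 1.71 and 1.66, with adjusted p = 0.0685 and 0.0913, and without replicate 2 of MnDps at 4 h 1.69 (adjusted p = 0.0708). A term for the deepest libraries gave 1.85 (adjusted p = 0.0513). Without the outlying replicate 3 of MnDps at 4 h, Cyp4a14 gave 2.33 (adjusted p = 0.0136) and Cyp4a10 0.72 (adjusted p = 0.00898), and both kept their call. Cyp4a12a and Cyp4a12b gave -0.31 ± 0.37 (adjusted p = 0.518) and -0.03 ± 0.22 (adjusted p = 0.921). The hepatocyte list had summed levels of 304.3 to 373.9 CPM in MnDps at 4 h, against 149.8 to 225.2 CPM in vehicle kidneys, and 5 of its 8 tested genes rose. Ttr, which encodes the carrier transthyretin, averaged 174.8 ± 20.4 CPM in MnDps at 4 h, against 108.8 ± 44.5 CPM in vehicle kidneys, and Fga, a fibrinogen chain, 91.6 ± 32.6 CPM against 25.9 ± 6.97 CPM in vehicle kidneys. Alb, which encodes albumin, averaged 12.3 ± 5.57 CPM in MnDps at 4 h, against 8.29 ± 0.78 CPM in vehicle kidneys. The libraries overlapped vehicle for Ttr (152 to 191.5 against 75.3 to 159.3 CPM) and for Alb (7.26 to 18.3 against 7.4 to 8.78 CPM). Apoc3 averaged 19 ± 1.66 CPM in MnDps at 4 h, against 8.66 ± 0.78 CPM in vehicle kidneys. Apoa1 and Apoa2 rose but lost their call with the length and GC correction (adjusted p = 0.0963 and 0.711). Of the other members of that list, Cyp7a1 was at 0 in all 14 libraries, Cyp8b1 had at most 4 counts and Cps1 at most 7. The adipocyte list had 182.4 to 304.8 CPM in MnDps at 4 h, against 75.7 to 152.1 CPM in vehicle kidneys, with 4 of 10 called higher. Neutrophil markers had 10.6 to 18.9 CPM in MnDps at 4 h, against 0.573 to 1.37 CPM in vehicle kidneys, and all 3 that could be tested rose. Endothelial markers had 3258 to 3807 CPM in MnDps at 4 h, against 4291 to 4850 CPM in vehicle kidneys, with 7 of 10 called lower and 1 higher. Most of that sum came from 1 listed gene, Cyp4b1. It had 2939 to 3434 CPM in MnDps at 4 h, against 3805 to 4352 CPM in vehicle kidneys. Of the 24 proximal tubule markers, 2 rose and 13 fell, while their summed level was 29077 to 30889 CPM in MnDps at 4 h, against 30412 to 31144 CPM in vehicle kidneys. With the length and GC correction Lrp2 (-0.055), Cubn (0.096), Slc4a4 (-0.15) and Slc22a6 (-0.29) lost their call as lower (adjusted p = 0.5385, 0.3, 0.148 and 0.0523). Pck1 lost its call as higher (0.53, adjusted p = 0.101). The part of these lists in the Cyp4a values was not tested.

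Dps at 24 h against vehicle addressed the later state after Dps, and there Cyp4a31, Cyp4a10 and Cyp4a12b fell. All 6 members had negative log2 fold changes, with a median of -0.74 against 0.00 over all genes tested, and 3 of 6 passed the test, while 10.4% of all tested genes were called lower and 9.64% higher. The Dps libraries did not overlap the vehicle libraries for 5 of the 6 members, all lower, against 19.6% of all genes lower without overlap. Cyp4a31 had 248.9, 272.4 and 262.9 CPM in Dps at 24 h, against 424.7, 389.4 and 455.6 CPM in vehicle kidneys (log2 fold change -0.70 ± 0.13, adjusted p = 0.00385). Cyp4a10 had 260.6, 293.3 and 279.6 CPM in Dps at 24 h, against 449.7, 504.3 and 407.1 CPM in vehicle kidneys (-0.71 ± 0.17, adjusted p = 0.0128). Every Dps library lay below every vehicle library for both genes, and the replicates of Dps were within a narrow range.

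Cyp4a12b fell as well, to 14.9, 20.9 and 13.6 CPM in Dps at 24 h, against 30.3, 30.3 and 24 CPM in vehicle kidneys (-0.77 ± 0.22, adjusted p = 0.0299). Its groups did not overlap, but the call was lost without replicate 1 or 3 of Dps at 24 h or any 1 vehicle library (-0.88 to -0.66, adjusted p of 0.0569 to 0.0862), and the summed counts of Cyp4a12a and Cyp4a12b gave -0.60 ± 0.31 (adjusted p = 0.199). With no filter on low counts the adjusted p of Cyp4a12b was 0.0561. Cyp4a14 had 27.7, 38.7 and 34.3 CPM in Dps at 24 h, against 130.4, 129.7 and 59.6 CPM in vehicle kidneys. Its log2 fold change of -1.66 ± 0.62 was the most negative of the family and its groups did not overlap, but it missed the threshold (adjusted p = 0.0882). DESeq2 (adjusted p = 0.0236) and a fit of only the 2 groups compared (adjusted p = 0.0453) put it below 0.05. Cyp4a32 gave -1.18 ± 0.46 (adjusted p = 0.0774) on 4 to 6 counts per Dps library. Cyp4a12a gave -0.53 ± 0.37 (adjusted p = 0.339).

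The falls of Cyp4a10 and Cyp4a31 in Dps at 24 h kept their call in all 8 alternative settings and in all 14 fits that left out 1 library, with ranges of -0.78 to -0.64 and -0.77 to -0.64 over the left-out libraries. Their summed counts with Cyp4a32 gave -0.70 ± 0.14 (adjusted p = 0.00516). Proximal tubule markers were little different as a sum, at 28128 to 30723 CPM in Dps at 24 h against 30412 to 31144 CPM in vehicle kidneys, and 6 of 24 were called lower and 1 higher. With the length and GC correction Lrp2 (0.047), Cubn (0.11) and Slc4a4 (-0.21) lost their call as lower (adjusted p = 0.692, 0.322 and 0.11). Aqp1 lost its call as higher (0.17, adjusted p = 0.243). Macrophage markers had a summed level of 223.5 to 250.8 CPM in Dps at 24 h, against 139.4 to 189.7 CPM in vehicle kidneys, with 8 of 10 called higher. C1qb, C1qc, Cd14 and Cd68 lost that call with the length and GC correction (adjusted p = 0.0787, 0.0699, 0.162 and 0.25). Adgre1, Cd14 and Cd68 lost it with a term for the deepest libraries (adjusted p = 0.0689, 0.0832 and 0.0679). Markers of the thick ascending limb and distal tubule had 4888 to 5726 CPM in Dps at 24 h, against 6664 to 8042 CPM in vehicle kidneys, with 4 of 9 called lower. Collecting duct markers had 1204 to 1242 CPM in Dps at 24 h, against 815.3 to 959.1 CPM in vehicle kidneys, with 3 of 9 called higher. Podocyte markers had 274.9 to 327.3 CPM in Dps at 24 h, against 362.7 to 365 CPM in vehicle kidneys, with 3 of 5 called lower. Adipocyte markers had 152.3 to 262.6 CPM in Dps at 24 h, against 75.7 to 152.1 CPM in vehicle kidneys, with 1 of 10 called higher. The part of these lists in the Cyp4a values was not tested.

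MnDps at 24 h against vehicle gave no called member (adjusted p of 0.122 to 0.777), while 4.93% of all tested genes were called higher and 8.39% lower. Only Cyp4a12b (0.58 ± 0.24) had an unadjusted p under 0.05 in edgeR's test, and DESeq2 called none of the 6. Leaving out 1 library gave 0.14 to 0.93 for Cyp4a12b, which was called without replicate 2 of MnDps at 24 h (0.93, adjusted p = 0.0428). The 2 libraries differed widely. Cyp4a14 had 253.7 and 60.5 CPM in MnDps at 24 h, against 130.4, 129.7 and 59.6 CPM in vehicle kidneys, and its log2 fold change of 0.56 ± 0.66 became -0.81 without replicate 1 of MnDps at 24 h. Cyp4a10 had 595.5 and 371.9 CPM in MnDps at 24 h, against 449.7, 504.3 and 407.1 CPM in vehicle kidneys. The groups did not overlap for Cyp4a12a, which was lower in MnDps, and for Cyp4a12b, which was higher. That is 2 of 6 members, against 45.2% of all genes. Macrophage markers had a summed level of 222 to 229.4 CPM in MnDps at 24 h, against 139.4 to 189.7 CPM in vehicle kidneys, with 6 of 10 called higher. C1qb, C1qc and Cd68 lost that call with the length and GC correction (adjusted p = 0.0702, 0.0733 and 0.116). Proximal tubule markers had 24812 to 27801 CPM in MnDps at 24 h, against 30412 to 31144 CPM in vehicle kidneys. Of these 24 markers, 2 were called lower and 1 higher. Thick ascending limb and distal tubule markers had 4834 to 5087 CPM, against 6664 to 8042 CPM, with 4 of 9 called lower. Collecting duct markers had 1195 to 1385 CPM, against 815.3 to 959.1 CPM, with 3 of 9 called higher. The part of these lists in the Cyp4a values was not tested.

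Dps at 4 h against vehicle also gave no called member, with adjusted p of 0.219 to 0.757, while 8.33% of all tested genes were called higher and 6.27% lower. No member had an unadjusted p under 0.05, and DESeq2 called none. The groups overlapped for every member, while 34.7% of all genes did not overlap. Cyp4a31 had 540.8, 413.6 and 549.5 CPM in Dps at 4 h, against 424.7, 389.4 and 455.6 CPM in vehicle kidneys (0.24 ± 0.13). Cyp4a12a had 137.9, 77.3 and 58.2 CPM in Dps at 4 h, against 68.4, 68 and 81.3 CPM in vehicle kidneys, so that replicate 1 alone was high. Adipocyte markers had a summed level of 230.7 to 319.7 CPM in Dps at 4 h, against 75.7 to 152.1 CPM in vehicle kidneys. Neutrophil markers had 4.94 to 7.51 CPM, against 0.573 to 1.37 CPM, and all 3 tested were called higher. Endothelial markers had 3745 to 4348 CPM, against 4291 to 4850 CPM, with 5 of 10 called lower and 1 higher. The hepatocyte list had 185.8 to 257.8 CPM, against 149.8 to 225.2 CPM. The part of these lists in the Cyp4a values was not tested.

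**Figure D2:**
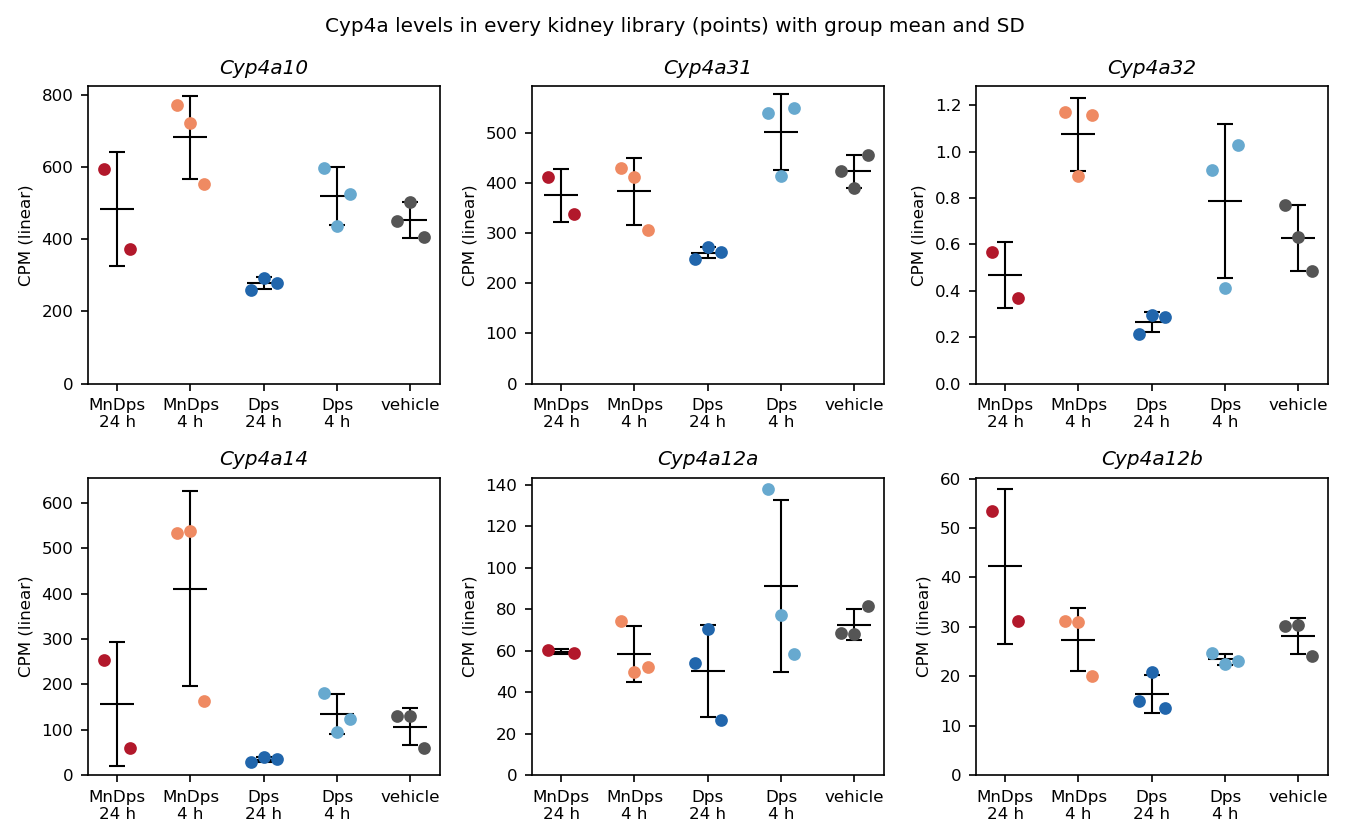
CPM (vertical axis, linear) of each member in every library, with the group mean and SD in black and groups from MnDps at 24 h on the left to vehicle on the right. Dps at 24 h holds the lowest library of every member, and MnDps at 4 h holds the highest for Cyp4a14, at 537.1 CPM.

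Direct comparison of the 2 cages at 24 h gave positive log2 fold changes for all 6 members (median 0.78 against 0.00 over all genes tested), with 5 of 6 not overlapping, where 18.6% of all genes were higher in MnDps without overlap. Only Cyp4a12b passed the test, which called 0.148% of all genes higher and 0.666% lower, 121 genes in all. It had 53.3 and 31.1 CPM in MnDps at 24 h, against 14.9, 20.9 and 13.6 CPM in Dps at 24 h (1.35 ± 0.24, adjusted p = 0.0293), and both MnDps libraries lay above all 3 Dps libraries. Without replicate 1 of MnDps at 24 h it was 0.91 (adjusted p = 0.161), without replicate 1 or 3 of Dps at 24 h 1.28 and 1.23 (adjusted p = 0.0739 and 0.109), and with the counts of Cyp4a12a added 0.61 ± 0.34 (adjusted p = 0.418). A fit of only the groups compared gave it an adjusted p of 0.128. Cyp4a10, Cyp4a31 and Cyp4a14 gave 0.80 ± 0.19 (adjusted p = 0.0624), 0.52 ± 0.14 (adjusted p = 0.0913) and 2.22 ± 0.67 (adjusted p = 0.155), and DESeq2 put all 3 below 0.05 (0.0016, 0.0204 and 0.0247). The 2 MnDps libraries lay far apart for Cyp4a14, which was 253.7 and 60.5 CPM in MnDps, against 27.7 to 38.7 CPM in Dps.

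At 4 h the direct comparison called only Cyp4a31, which fell in MnDps relative to Dps (-0.39 ± 0.13, adjusted p = 0.0253). That is 1 of 6 members called lower, where 20.7% of all genes were called lower and 20.8% higher, and the groups overlapped for every member, while 53% of all genes did not overlap. It had 431, 412.6 and 307.2 CPM in MnDps at 4 h, against 540.8, 413.6 and 549.5 CPM in Dps at 4 h. The direction turned to 0.06 ± 0.14 (adjusted p = 0.752) when Cyp4a10, Cyp4a31 and Cyp4a32 were summed, and the call was lost without replicate 3 of MnDps (-0.27) and without replicate 1 or 3 of Dps (-0.34 and -0.33). A term for the deepest libraries and a fit of only the groups compared also ended it (adjusted p = 0.0842 and 0.0677). Cyp4a14 gave 1.62 ± 0.60 (adjusted p = 0.0542) and Cyp4a10 0.39 ± 0.17 (adjusted p = 0.0784), both past 0.05 in DESeq2 (0.0173 and 0.0387).

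**Figure D3:**
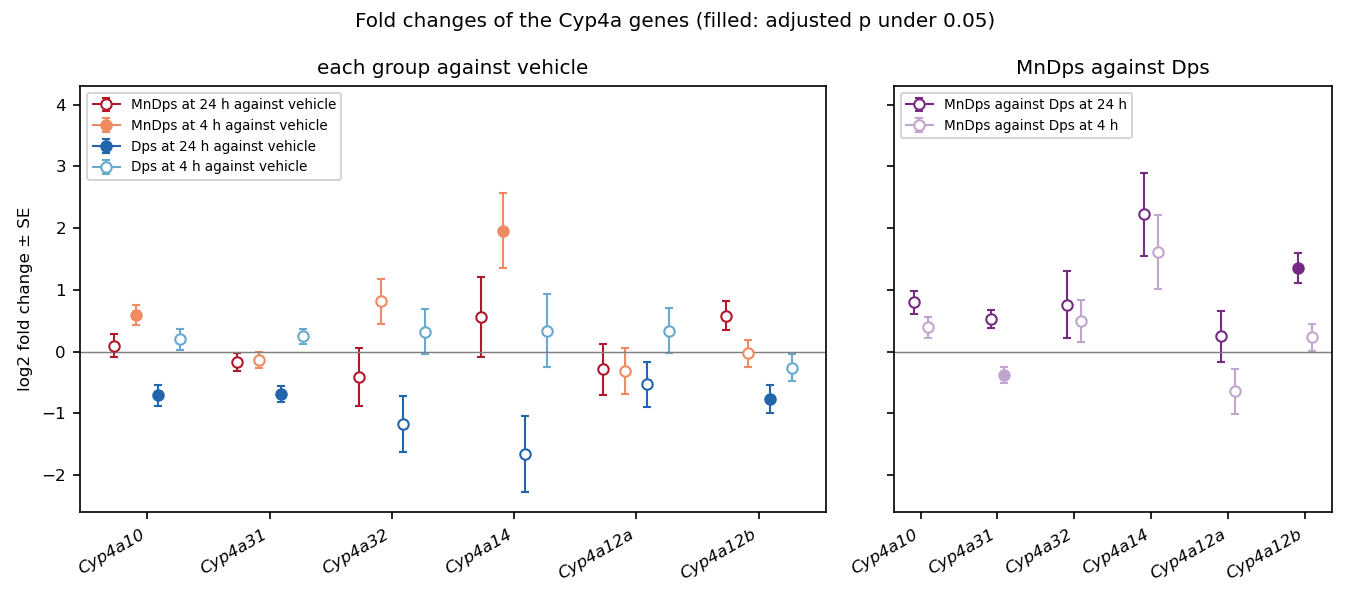
Log2 fold changes ± SE (vertical axis) of the 6 members (horizontal axis) against vehicle on the left and of MnDps against Dps on the right, with filled points at an adjusted p under 0.05. Cyp4a14 and Cyp4a10 in MnDps at 4 h, Cyp4a10, Cyp4a31 and Cyp4a12b in Dps at 24 h, and 1 member in each comparison of the 2 cages are filled.

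The later Dps kidneys were also lower than the earlier ones. Of 6 members, 4 fell at 24 h relative to 4 h, where 22.6% of all tested genes were called lower and 22% higher. These were Cyp4a31 (-0.94 ± 0.13, adjusted p = 5.9e-05), Cyp4a10 (-0.91 ± 0.17, adjusted p = 0.000878), Cyp4a32 (-1.49 ± 0.43, adjusted p = 0.00996) and Cyp4a14 (-2.00 ± 0.62, adjusted p = 0.026). The groups did not overlap for 5 of 6 members, all lower, against 29.3% of all genes. The Cyp4a14 call was lost without replicate 1 of Dps at 4 h or any 1 Dps library at 24 h (-2.11 to -1.72), and with a term for the deepest libraries (-2.35, adjusted p = 0.0551). No member was called in MnDps at 24 h against 4 h by edgeR, although 3 had an unadjusted p under 0.05, and 10.1% of all genes were called higher and 11.7% lower. DESeq2 put Cyp4a10 and Cyp4a12b below 0.05 there (-0.49, adjusted p = 0.0331, and 0.62, adjusted p = 0.0319).

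An interaction term asked whether the change from 4 h to 24 h differed between the cages. It was positive for all 6 members (median 0.75), with 2 called higher, while 13.7% of all genes were called higher and 15.7% lower. Cyp4a31 gave 0.91 ± 0.19 (adjusted p = 0.00286), with a range of 0.76 to 1.05 over the left-out libraries, and kept its call throughout. Cyp4a12b gave 1.12 ± 0.32 (adjusted p = 0.0206), which became 0.69 (adjusted p = 0.114) without replicate 1 of MnDps at 24 h and 1.03 ± 0.46 (adjusted p = 0.122) with the counts of Cyp4a12a added. Cyp4a10 was not called by itself (0.41 ± 0.25, adjusted p = 0.252), but the summed counts of Cyp4a10, Cyp4a31 and Cyp4a32 gave 0.61 ± 0.21 (adjusted p = 0.0376), and Cyp4a10 gave 0.71 (adjusted p = 0.0389) without replicate 2 of MnDps at 24 h.

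Ratios of members within one library do not depend on the scaling of libraries. The count ratio of Cyp4a10 to its copy Cyp4a31 was 1.44 and 1.1 in MnDps at 24 h, 1.79, 1.75 and 1.8 in MnDps at 4 h, 1.05, 1.08 and 1.06 in Dps at 24 h, and 1.11, 1.06 and 0.958 in Dps at 4 h, against 1.06, 1.29 and 0.893 in vehicle kidneys. The 3 MnDps libraries at 4 h lay close together and above every other library. The ratio was 1.67-fold higher in MnDps at 4 h than in vehicle and 1.72-fold higher than in Dps at 4 h. The exact permutation test gave p = 0.1 for each, the smallest that 3 against 3 libraries allow, and 0.15 after adjustment over 6 comparisons. In Dps at 24 h the ratio was 0.993 times that of vehicle, with overlap. The ratio of Cyp4a14 to Cyp4a10 was 0.689, 0.743 and 0.295 in MnDps at 4 h and 0.106, 0.132 and 0.123 in Dps at 24 h, against 0.29, 0.257 and 0.146 in vehicle kidneys.

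**Figure D4:**
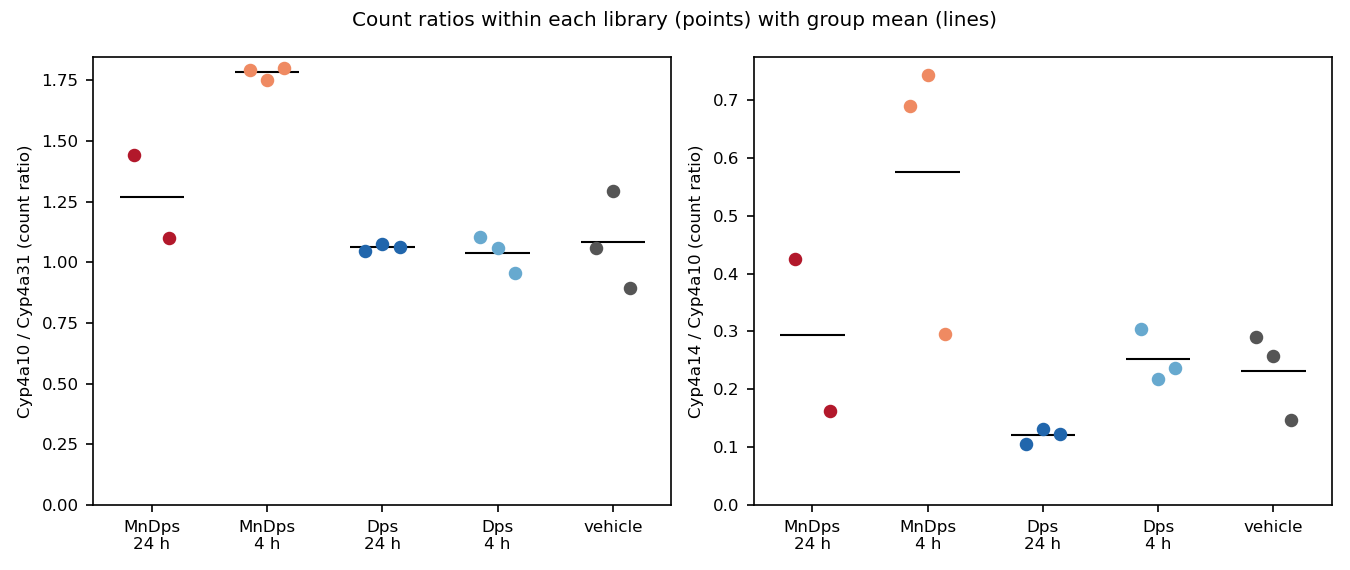
Count ratios of Cyp4a10 to Cyp4a31 (left) and of Cyp4a14 to Cyp4a10 (right) in every library, with lines at the group means and groups from MnDps at 24 h on the left to vehicle on the right. The first ratio is 1.75 to 1.8 in MnDps at 4 h and at most 1.44 elsewhere.

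Genes whose pattern over the 14 libraries was most like that of a member were found by the root mean square difference of centred log2(CPM + 0.5), for each member called against vehicle. For Cyp4a14, whose own root mean square spread was 1.29, the nearest included Gm15441 (0.485), Acot1 (0.773), Creb3l3 (0.798) and Cyp27b1 (0.836). Gm15441 is annotated antisense to Txnip, so without a stated strand setting its reads and those of Txnip may mix. For Cyp4a10 (own spread 0.473) they were Acot3 (0.215), Tmem171, Acsl1, Slc16a13 and Acot2 (0.26), with Cyp4a32 at 0.224. Acot3 overlaps Gm49366 on the same strand. Cyp4a31 (own spread 0.35) was nearest to Fitm2, Sema6a, Ppp2r3a, Zfp72 and Zfp81 at 0.143 to 0.159, and Cyp4a12b (own spread 0.467) to Ucp2, Sgtb, Prc1, Parpbp and Slc17a2 at 0.295 to 0.321. Acot1, a cytosolic acyl-CoA thioesterase, averaged 63.5 ± 22.2 CPM in MnDps at 24 h, 179.8 ± 27.3 in MnDps at 4 h, 52.4 ± 5.92 in Dps at 24 h and 97.4 ± 9.75 in Dps at 4 h, against 71.5 ± 5.7 CPM in vehicle kidneys.

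PPARα target genes other than Cyp4a were followed from a list of 51, of which 50 were tested. In MnDps at 4 h against vehicle, 19 of the 50 rose and 4 fell (median log2 fold change 0.22, against 0.00 over all genes), while 22.9% of all tested genes were called higher and 22.7% lower. Among those that rose were Creb3l3 (1.78 ± 0.44, adjusted p = 0.00382), a liver transcription factor of lipid metabolism, Acot1 (1.33 ± 0.16, adjusted p = 3.31e-05) and the lipid droplet protein gene Cidec (2.21 ± 0.73, adjusted p = 0.0321). Creb3l3 was at a low level, with 2.3 ± 0.59 CPM in MnDps at 4 h, against 0.66 ± 0.15 CPM in vehicle kidneys. Txnip, which binds thioredoxin, fell (-0.96 ± 0.20, adjusted p = 0.00178), as did the fatty acid translocase gene Cd36 (-0.78 ± 0.17, adjusted p = 0.00189). With the length and GC correction the split became 11 higher and 10 lower (median 0.08). Cidec lost its call with that correction (adjusted p = 0.0657), with a term for the deepest libraries (0.0622) and with no filter on low counts (0.0507). It is also an adipocyte marker in the list described above.

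In Dps at 24 h against vehicle, 2 of the 50 rose and 12 fell (median -0.17), while 9.64% of all tested genes were called higher and 10.4% lower. The falls included Ehhadh (-0.59 ± 0.14, adjusted p = 0.00972), a peroxisomal β-oxidation enzyme, Acot12 (-0.62 ± 0.10, adjusted p = 0.00239), Crot (-0.57 ± 0.13, adjusted p = 0.00799), which shuttles peroxisomal fatty acids as carnitine esters, and Txnip (-0.97 ± 0.20, adjusted p = 0.00719). Acot1 gave -0.45 ± 0.16 (adjusted p = 0.0665). The 2 that rose were Acaa1a (0.52 ± 0.10, adjusted p = 0.00346), the peroxisomal thiolase, and Eci1 (0.27 ± 0.08, adjusted p = 0.0286), a mitochondrial enoyl-CoA isomerase. Eci1 lost its call with a term for the deepest libraries (0.22, adjusted p = 0.0836) and turned to -0.055 (adjusted p = 0.686) with the length and GC correction. Acaa1a overlaps genes on the opposite strand. In MnDps at 24 h, 2 rose and 7 fell, against 4.93% of all tested genes called higher and 8.39% lower. In Dps at 4 h, 5 rose and 2 fell, against 8.33% called higher and 6.27% lower. These comparisons share the vehicle libraries.

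Ppara, the gene of the receptor itself, was not called against vehicle. It gave -0.34 ± 0.24, -0.24 ± 0.21, -0.30 ± 0.21 and 0.36 ± 0.21 in MnDps at 24 h, MnDps at 4 h, Dps at 24 h and Dps at 4 h against vehicle (adjusted p of 0.272 to 0.381), and fell in MnDps relative to Dps at 4 h (-0.60 ± 0.21, adjusted p = 0.0378). Of 14 genes for PPAR and RXR receptors and their cofactors, 5 fell and 1 rose in MnDps at 4 h. There 22.7% of all tested genes were called lower and 22.9% higher, so the total called is near the background. In Dps at 24 h 6 fell and 1 rose, against 10.4% of all tested genes called lower and 9.64% higher. With the length and GC correction 3 fell and 1 rose in MnDps at 4 h, and 1 fell and none rose in Dps at 24 h (median -0.09, against -0.32 without it), where a term for the deepest libraries left 3 lower. The coactivator gene Ppargc1a fell in both (-0.88 ± 0.13, adjusted p = 0.000109, and -0.60 ± 0.13, adjusted p = 0.00688), as did Ncoa2 (-1.06 ± 0.12, adjusted p = 5.81e-06, and -0.45 ± 0.12, adjusted p = 0.0155). Ncoa2 in Dps at 24 h lost its call with the length and GC correction (-0.15, adjusted p = 0.234). Por, which passes electrons to every microsomal P450, was not called in any of the comparisons against vehicle (-0.16 to 0.05). Of 4 electron donor genes of P450 enzymes, only Cyb5a, which encodes cytochrome b5, was called, lower in Dps at 4 h (-0.27 ± 0.08, adjusted p = 0.0319). That call was lost with no filter on low counts (adjusted p = 0.0551) and with a term for the deepest libraries (adjusted p = 0.0503). With the length and GC correction all 4 donor genes were called lower in Dps at 4 h and 2 in MnDps at 4 h, and 1 was called lower in MnDps at 24 h and 1 higher in Dps at 24 h.

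The products of fatty acid hydroxylation are oxidised further to dicarboxylic acids and shortened in peroxisomes. Of 11 tested genes of these steps, 1 rose and 5 fell in Dps at 24 h, against 9.64% of all tested genes called higher and 10.4% lower. Acsl1, an acyl-CoA synthetase and one of the nearest patterns to Cyp4a10, fell (-0.82 ± 0.13, adjusted p = 0.00239), as did the fatty aldehyde dehydrogenase gene Aldh3a2 (-0.28 ± 0.08, adjusted p = 0.017), and the alcohol dehydrogenase gene Adh7 rose (1.10 ± 0.30, adjusted p = 0.0195). Adh7 was at a low level, with 1.04 ± 0.13 CPM in Dps at 24 h, against 0.5 ± 0.13 CPM in vehicle kidneys. With a term for the deepest libraries the calls of Aldh3a2 and Adh7 were lost (adjusted p = 0.0537 and 0.0657). In MnDps at 24 h none rose and 4 fell, against 4.93% of all tested genes called higher and 8.39% lower. In MnDps at 4 h 2 rose and 1 fell (22.9% and 22.7% of all genes), and in Dps at 4 h 1 rose and 1 fell (8.33% and 6.27%). Aldh3a2, Ehhadh, Acot4 and Abcd3 are also on the PPARα target list.

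Of 9 tested Cyp4 genes outside the 6 members, Cyp4b1 fell in MnDps at 4 h (-0.38 ± 0.10, adjusted p = 0.00462) and Cyp4f17 in Dps at 24 h (-0.55 ± 0.13, adjusted p = 0.00934), and none rose against vehicle. Cyp4b1 is also on the endothelial marker list. Of 9 tested epoxygenase and epoxide hydrolase genes, Cyp2j13 fell in MnDps at 4 h (-0.53 ± 0.16, adjusted p = 0.0138) and none was called in Dps at 24 h. The Cyp2j13 call was lost with the length and GC correction (-0.41, adjusted p = 0.103), under which 3 of the 9 were called lower in MnDps at 4 h and 4 in Dps at 4 h. Of 16 tested genes for arachidonic acid release, cyclooxygenase and lipoxygenase, 3 rose and 5 fell in MnDps at 4 h, near the 22.9% of all tested genes called higher and 22.7% lower. Among them were the prostaglandin D synthase gene Ptgds (0.69 ± 0.23, adjusted p = 0.0246) and Hpgd, which encodes a prostaglandin-degrading dehydrogenase (-0.76 ± 0.23, adjusted p = 0.0149). With a term for the deepest libraries none of the 16 was called higher there and Ptgds gave 0.64 (adjusted p = 0.0659), and with the length and GC correction Ptgds gave 0.26 (adjusted p = 0.388). The prostacyclin synthase gene Ptgis was the only 1 of the 16 called in Dps at 24 h, where it rose (1.46 ± 0.26, adjusted p = 0.00316). In MnDps at 24 h 3 of the 16 rose and 1 fell, against 4.93% of all tested genes called higher and 8.39% lower. In Dps at 4 h 1 rose and 4 fell, against 8.33% called higher and 6.27% lower. The riser was Ptgs2, the inducible cyclooxygenase (1.52 ± 0.37, adjusted p = 0.0107). Ptgs2 gave 0.29 ± 0.41 (adjusted p = 0.594) in MnDps at 4 h. Its level was low, with 1.7 ± 0.61 CPM in Dps at 4 h, against 0.6 ± 0.13 CPM in vehicle kidneys. The receptor gene for 20-HETE, Gpr75, had too few counts to be tested.

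Androgen-responsive kidney genes were read beside Cyp4a12a and Cyp4a12b. Of 10 such genes, 1 rose and 4 fell in MnDps at 4 h, where 22.9% of all tested genes were called higher and 22.7% lower, so 5 of 10 called is near the background. With a term for the deepest libraries 1 rose and 2 fell. Kap, an androgen-regulated proximal tubule transcript, rose (0.45 ± 0.11, adjusted p = 0.00341), and the transporter gene Slco1a1 fell (-1.36 ± 0.33, adjusted p = 0.00684). With the length and GC correction Kap gave 0.021 (adjusted p = 0.884). In Dps at 24 h none of the 10 passed the test. Slco1a1 gave -0.59 ± 0.32 (adjusted p = 0.224) and Kap 0.24 ± 0.11 (adjusted p = 0.121). Cyp2e1, a P450 of the proximal tubule, was not called against vehicle in any group (-0.19 to 0.12).

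Of 17 clock genes, 5 rose and 3 fell in MnDps at 24 h, where 4.93% of all tested genes were called higher and 8.39% lower. In Dps at 24 h 5 rose and 4 fell, against 9.64% called higher and 10.4% lower. At 4 h, 2 rose and 6 fell in MnDps and 2 rose in Dps. The shares of all tested genes at 4 h were 22.9% higher and 22.7% lower in MnDps, and 8.33% and 6.27% in Dps. The total called in MnDps at 4 h is thus near the background. Dbp, an output gene of the circadian clock, rose in MnDps at 24 h (1.07 ± 0.12, adjusted p = 0.000305) and Dps at 24 h (0.67 ± 0.11, adjusted p = 0.00252), and the clock activator gene Arntl fell in both (-1.84 ± 0.32, adjusted p = 0.00279, and -1.62 ± 0.27, adjusted p = 0.00239). Neither was called at 4 h. Cry1, a clock repressor gene, rose in all 4 groups, by 0.81 ± 0.24 (adjusted p = 0.0127) in MnDps at 4 h and 1.07 ± 0.24 (adjusted p = 0.00592) in Dps at 4 h. The labels give no hour of collection, and the part of clock time in the Cyp4a levels was not tested. Dbp, Arntl, Ptgis, Adh7, Cyb5a and Cubn overlap genes on the opposite strand, whose reads may mix with theirs if strand was not used in counting.

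**Figure D5:**
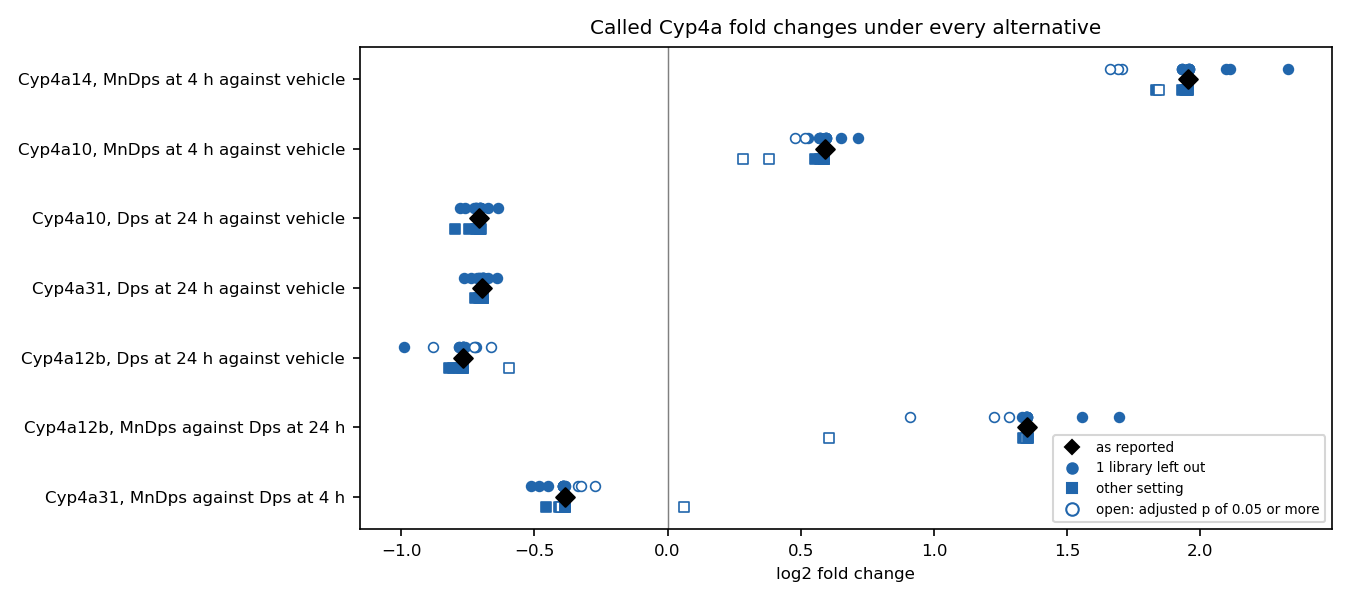
Log2 fold changes (horizontal axis) of the members called against vehicle or between cages, as reported (diamonds), without 1 library (circles) and under the other settings (squares), with open symbols at an adjusted p of 0.05 or more. The rows of Cyp4a10 and Cyp4a31 in Dps at 24 h hold filled symbols throughout.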

How the data were processed

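Kidney RNA was sequenced as stranded TruSeq mRNA libraries on a HiSeq4000 in paired 75-base reads, per the labels' protocols. Reads were aligned with STAR and counted per gene with featureCounts on mm10, per the submitters' processing notes, and the authors deposited raw read counts. Not given in the sources used here are tool versions, the annotation, the strand setting and how multi-mapping reads were handled. Groups were taken from the labels, and replicate numbers follow accession order.

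Of 24421 genes, filterByExpr kept 14854. Counts were scaled by TMM to CPM and tested with edgeR 4.0.16 (R 4.3.3) in 1 quasi-likelihood fit of 5 group means (9 residual degrees of freedom, biological coefficient of variation 10.7%). Benjamini-Hochberg adjustment was made over all tested genes, separately for each of 9 comparisons, with calls at an adjusted p under 0.05. Fold changes carry a standard error derived from the F statistic. Replicate pairs differed beyond counting error (chi-square per degree of freedom 6.78 to 25.2). The fit was tested on simulated counts. Alternatives were median-of-ratios scaling, no filter, a stricter filter, DESeq2 1.42.0, only the groups compared, a length and GC offset, a term for libraries above 30000000 counts, summed copies, and leaving out each library. Sequences and transcript lengths came from mm10 and GENCODE M21.

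The members, gene lists, tests and naming rule were chosen with earlier results of these data known. Genes named beside the members were the up to 4 called genes of a list with the largest change per direction and comparison, the 5 with the most similar pattern, and Ppara, Por, Cyp2e1, Kap and Dbp. Some genes that this rule selects are not reported here. Ttr, Fga, Alb, Apoc3, Apoa1, Apoa2, Cyp7a1, Cyp8b1 and Cps1 were named from the hepatocyte marker list after their values were seen. Macrophage and proximal tubule markers were named for calls that they lost under an alternative, also after their values were seen.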

Additional observations from a re-analysis of the deposited data

Results flagged for a closer look

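The change between 4 h and 24 h differed between MnDps and Dps for Cyp4a31 and Cyp4a12b, by the interaction term of edgeR's fit. For Cyp4a31 the interaction was 0.91 ± 0.19 on the log2 scale (adjusted p = 0.00286). Its log2 fold change at 24 h against 4 h was -0.03 ± 0.14 in MnDps and -0.94 ± 0.13 in Dps. For Cyp4a12b the interaction was 1.12 ± 0.32 (adjusted p = 0.0206), with 0.61 ± 0.24 in MnDps and -0.51 ± 0.22 in Dps. MnDps at 24 h rests on 2 libraries, with 53.3 and 31.1 CPM of Cyp4a12b.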

How the results depend on the processing

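No paired analysis was possible because the labels give no replicate numbers, so libraries of different groups share none. The falls of Cyp4a10 and Cyp4a31 in Dps at 24 h against vehicle, those of Cyp4a10, Cyp4a31 and Cyp4a32 in Dps at 24 h against 4 h and the Cyp4a31 interaction kept their call under all 8 settings and all 14 left-out libraries. The other calls of members were lost under at least 1 of them, and the cause was not tested. With summed copies a gene was replaced by its sum with its near copies, so that setting does not test the gene alone. For Cyp4a32, with 4 to 39 counts a library, the sum was carried by Cyp4a10 and Cyp4a31 and says nothing of Cyp4a32 itself. Directions that turned belonged to uncalled members except Cyp4a31 in MnDps against Dps at 4 h, where its sum with Cyp4a10 and Cyp4a32 gave 0.062. The same sum gave -0.030 in MnDps at 24 h against vehicle (Cyp4a10 alone 0.09) and 0.28 in MnDps at 4 h (Cyp4a31 alone -0.14). The sum of Cyp4a12a and Cyp4a12b gave 0.0100 in MnDps at 24 h against vehicle (Cyp4a12a alone -0.29). It gave 0.19 in Dps at 4 h and -0.42 in MnDps against Dps at 4 h (Cyp4a12b alone -0.26 and 0.23). With the length and GC correction Cyp4a31 was 0.082 in MnDps at 24 h against 4 h.

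With the length and GC correction, genes called numbered 1161 for MnDps at 24 h against vehicle (1978 as reported), 1490 for Dps at 24 h (2979), 3728 for Dps at 4 h (2168), 3697 for MnDps against Dps at 4 h (6158) and 2358 for the interaction (4368). The split turned to 1220 higher and 2508 lower in Dps at 4 h (1237 and 931 as reported), 2241 and 1456 in MnDps against Dps at 4 h (3085 and 3073), 3531 and 2181 in Dps at 24 h against 4 h (3270 and 3356), and 673 and 1685 for the interaction (2034 and 2334). With the depth term the counts were 1033 for MnDps at 24 h, 1637 for Dps at 24 h, 68 for MnDps against Dps at 24 h (121 as reported), 3558 at 4 h and 4225 for Dps at 24 h against 4 h (6626). Fits of only the groups compared gave 727 genes for MnDps against Dps at 24 h (231 higher and 496 lower, against 22 and 99 as reported) and 1878 for MnDps at 24 h against 4 h (3242), and DESeq2 gave 570 for MnDps against Dps at 24 h (165 higher and 405 lower).

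Leaving out 1 library gave 300 to 2821 genes for MnDps at 24 h against vehicle, 843 to 3861 for Dps at 24 h, 1435 to 2666 for Dps at 4 h, 5 to 598 for MnDps against Dps at 24 h, 1336 to 3373 for MnDps at 24 h against 4 h and 2724 to 4598 for the interaction. Counts moved by over 1.5 times for MnDps at 24 h against vehicle without replicates 1 or 2 of MnDps at 24 h (300 and 609) or 1 or 3 of vehicle (1221 and 779), for Dps at 24 h without its replicates 1 or 2 (1776 and 1194) or replicate 3 of vehicle (843), and for Dps at 4 h without its replicate 2 (1435). For MnDps against Dps at 24 h they did so without replicates 1 or 2 of MnDps at 24 h (5 and 22), replicates 1, 2 or 3 of Dps at 24 h (45, 16 and 15), replicates 2 or 3 of Dps at 4 h (80 and 66) or replicate 3 of MnDps at 4 h (598). Without replicates 1 or 2 of MnDps at 24 h, 1837 and 1336 genes were called for MnDps at 24 h against 4 h, and without replicate 2, 2724 for the interaction. Members turned direction in MnDps at 24 h against vehicle (Cyp4a10 -0.29 to 0.39, Cyp4a14 -0.81 to 1.26), MnDps at 4 h (Cyp4a12b -0.15 to 0.14), Dps at 4 h (Cyp4a12a -0.078 to 0.58), MnDps against Dps at 24 h (Cyp4a12a -0.063 to 0.57), MnDps at 24 h against 4 h (Cyp4a12a -0.079 to 0.23, Cyp4a31 -0.19 to 0.11) and the interaction (Cyp4a14 -0.76 to 1.30, Cyp4a32 -0.028 to 0.61). Members not called with every library passed 0.05 in 21 results, each without replicate 1 or 2 of MnDps at 24 h, replicate 3 of MnDps at 4 h, replicate 2 of Dps at 24 h, or replicate 2 or 3 of Dps at 4 h. Cyp4a32, with 4 to 39 counts a library, is limited by depth.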
